A study of Homo sapiens with 6 samples.

Results

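The genes described here are effectors of the Hippo pathway and targets of its coactivator YAP in Hep3B, an established human hepatocellular carcinoma (HCC) cell line. They are the 10 rows of a deposited table of 16720 named genes whose names are YAP1, WWTR1, TEAD1, TEAD4, LATS2, CYR61 (also CCN1), CTGF (also CCN2), ANKRD1, AMOTL2 and AJUBA. The members were chosen by name, with earlier results of these data known, and no measured value entered the rule. All 10 passed the filter on low counts.

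RNA was sequenced from 3 libraries labelled sgControl, Hep3B cells of genotype WT, and from 3 libraries labelled sgRFX6, Hep3B cells with a knockout of RFX6, a transcription factor of the regulatory factor X family. The comparison asked what the loss of RFX6 changes in HCC cells. Per the study's methods, guides were delivered with a lentiviral vector that also carries Cas9, cells were selected with puromycin, and colonies grown from single cells were picked. The knockout columns of the table name 1 guide, and whether the 3 sgRFX6 libraries stem from 1 clone was not given. The labels number the libraries of each group but do not say that they came from separate cultures, so a p-value measures the spread between these libraries, which may be technical.

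The Hippo pathway restrains growth through a kinase cascade. The LATS kinases phosphorylate the coactivators YAP (YAP1) and TAZ (WWTR1) and keep them out of the nucleus, in response to cell contact, polarity and tension. YAP and TAZ that reach the nucleus bind the TEAD transcription factors and switch on genes such as CTGF, CYR61 and ANKRD1. In the liver this pathway limits organ size, and active YAP is a known driver of liver tumours.

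The libraries held between 16730374 and 25070770 counts, and 3 counts correspond to between 0.121 and 0.188 CPM (read counts scaled by library size). The deviation of a gene from the mean of its group varied with the GC content of its transcripts, with Spearman correlations across genes between -0.854 in sgRFX6 library 3 and 0.738 in sgRFX6 library 2. Genes within a library share its composition and depth and are not independent replicates. Library 3 of sgRFX6 therefore stood apart from the other sgRFX6 libraries, and results that rest on it are given with and without it. The targeted gene, RFX6, was counted 117, 144 and 170 times across sgControl and 69, 59 and 77 times across sgRFX6. The groups did not overlap, a pattern found in 11.2% of all genes tested. The log2 fold change of -0.82 (standard error (SE) 0.26) missed the threshold in edgeR's quasi-likelihood test (adjusted p = 0.142). The study reports that it checked the knockout by real-time PCR and western blotting. Protein was not measured in these libraries. The hepatocyte marker HNF4A was at 109 CPM or more in every library. Of the secreted liver proteins, ALB was at 32.1 CPM or less. AFP ranged from 1.58 to 2.31 CPM in sgControl and from 9.98 to 17.2 CPM in sgRFX6. APOB ranged from 60.5 to 76.4 CPM in sgControl and from 15.9 to 46.1 CPM in sgRFX6. Blood cell markers summed to at most 3.16 CPM.

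The sequences before the genes' start sites are shown first because they hold the element that TEAD factors are known to bind. This element, MCAT, was searched as CATTCC on both strands, which reads GGAATG on the other strand, in the 250 bases before each RefSeq start (GRCh38.p14). It occurred in 11.9% of 35116 such windows. Of the 10 members, 7 had an entry in the promoter table, and 5 of these held the element in at least 1 window. CYR61, TEAD1 and TEAD4 had no entry. ANKRD1 and CTGF are printed because both are textbook YAP targets with the element and gave different results below. Both lie on the minus strand and are written 5′ to 3′ in the direction of transcription, with the MCAT element in capitals. For ANKRD1 the stretch before the longer GENCODE gene model and a short stretch around the second element are given.
ANKRD1, chr10:90921277-90921337: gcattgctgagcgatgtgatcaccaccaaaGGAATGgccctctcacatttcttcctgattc
ANKRD1, chr10:90921198-90921227: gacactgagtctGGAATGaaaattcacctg
CTGF, chr6:131951374-131951622: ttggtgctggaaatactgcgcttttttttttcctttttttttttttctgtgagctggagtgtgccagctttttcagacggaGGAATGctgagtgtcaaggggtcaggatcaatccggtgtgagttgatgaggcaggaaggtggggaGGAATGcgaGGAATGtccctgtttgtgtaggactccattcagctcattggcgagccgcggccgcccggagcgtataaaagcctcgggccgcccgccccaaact
The elements began 220 and 128 bases before the start of ANKRD1, and 169, 104 and 95 bases before the start of CTGF. YAP1 held 1 element at 162 bases, AMOTL2 held 1 at 69 bases in 1 of its windows, and AJUBA held 1 at 59 bases in 1 of its windows. LATS2 and WWTR1 held none. A single arm of the X-box, the element bound by RFX factors, was searched as GTTNCC on both strands. It occurred in 39.7% of all windows and in 3 of the 7 members, at 69 bases before ANKRD1, 137 before YAP1 and 87 before AMOTL2. The whole X-box, in which this core is followed by its inverted repeat, occurred in 0.441% of windows and in 0 of the 7. All of these shares, that of MCAT included, are of windows, whereas the members are counted by gene. AJUBA, AMOTL2 and WWTR1 had more than 1 window each, so the shares and the member counts are not like for like. A match is a run of letters and was not tested as a binding site.

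Across the 10 members, 1 gene passed the test. ANKRD1 was lower in sgRFX6, 0 members were higher, and the other 9 missed the threshold. Among all 12839 genes tested, 1.81% were called lower and 1.92% higher at an adjusted p under 0.05. The median log2 fold change of the members was -0.14, with 4 positive and 6 negative, against a median of 0.02 over all genes tested. All log2 fold changes below are sgRFX6 over sgControl. In bulk RNA, fewer cells that express a gene and less RNA per cell cannot be told apart.

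**Figure D1:**
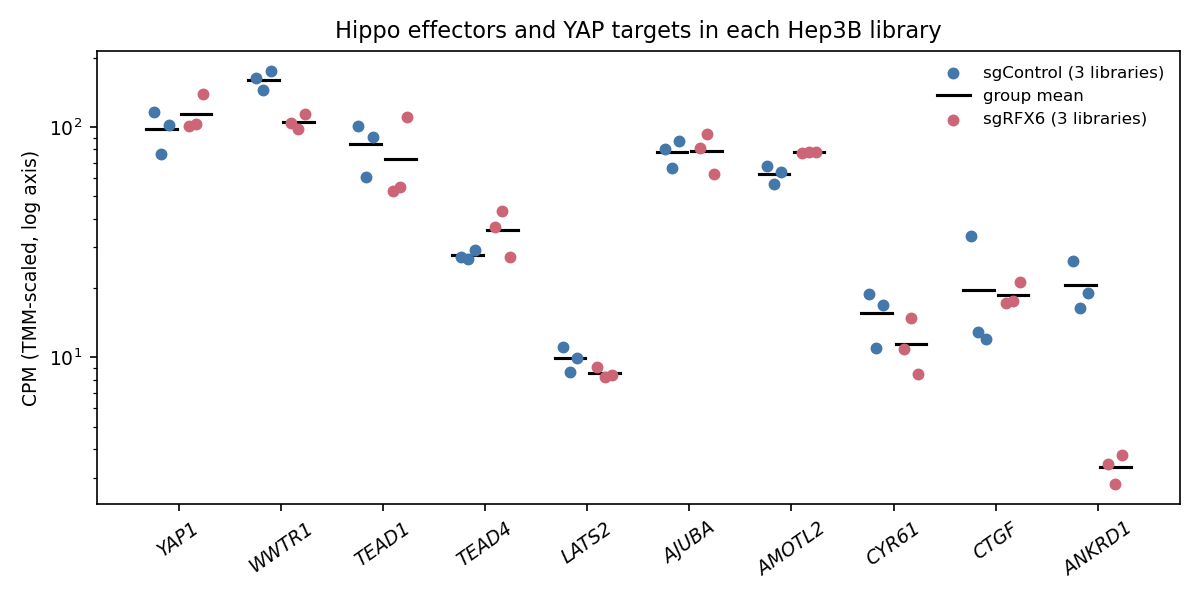
CPM (TMM-scaled, log axis) of each member in the 3 sgControl and 3 sgRFX6 libraries, with 1 point per library and a line at each group mean. The 3 sgRFX6 points of ANKRD1 lie between 2.83 and 3.77 CPM, far below its sgControl points, and those of WWTR1 lie below its sgControl points, whereas those of AMOTL2 lie above.

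The coactivators were expressed at high levels, and only TAZ showed groups that did not overlap. YAP1 (chr11:102110461-102233423) measured 117, 76.2 and 102 CPM across sgControl and 101, 103 and 140 CPM across sgRFX6. The groups overlapped, and sgRFX6 library 3 was the highest of all 6. Its log2 fold change was 0.22 (SE 0.22), with an edgeR adjusted p of 0.726, and without that library it was 0.05. It was 0.06 without sgControl library 2 and 0.35 without sgControl library 1. The 50 tested genes nearest to YAP1 on its chromosome had a median log2 fold change of 0.50, so YAP1 lay below its neighbourhood by a log2 difference of -0.29.

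WWTR1 (chr3:149517235-149736714), which encodes TAZ, measured 163, 145 and 175 CPM in sgControl and 104, 98.1 and 114 CPM in sgRFX6. No sgRFX6 library reached the lowest sgControl library, a pattern found in 11.2% of all genes tested. The mean level was 161 ± 14.8 CPM (SD, n = 3) in sgControl and 105 ± 7.91 CPM (SD, n = 3) in sgRFX6. A log2 fold change of -0.61 (SE 0.16) missed the threshold in edgeR (adjusted p = 0.0788). It passed in 4 of 13 alternatives, namely DESeq2 (adjusted p = 0.0250), limma-voom with sample quality weights (0.000217), edgeR with a GC correction (0.0342) and edgeR without sgRFX6 library 3 (0.0348). Its neighbours on the chromosome had a median of -0.02.

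On the scale of CPM per kb of annotated exons, WWTR1 stood above YAP1 in sgControl, at 29.95 ± 2.76 against 17.5 ± 3.63 (SD, n = 3 each). In sgRFX6 the levels were 19.6 ± 1.47 for WWTR1 and 20.3 ± 3.91 for YAP1. The ratio of WWTR1 to YAP1 within each library was 1.464, 1.997 and 1.788 in sgControl and 1.081, 1.003 and 0.854 in sgRFX6. Thus the paralogs were near equal in the knockout libraries, while TAZ transcripts prevailed in all control libraries. The ratio was chosen after the values were seen, and a two-sided exact permutation test gave p = 0.1, the smallest that 3 against 3 libraries allow.

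**Figure D2:**
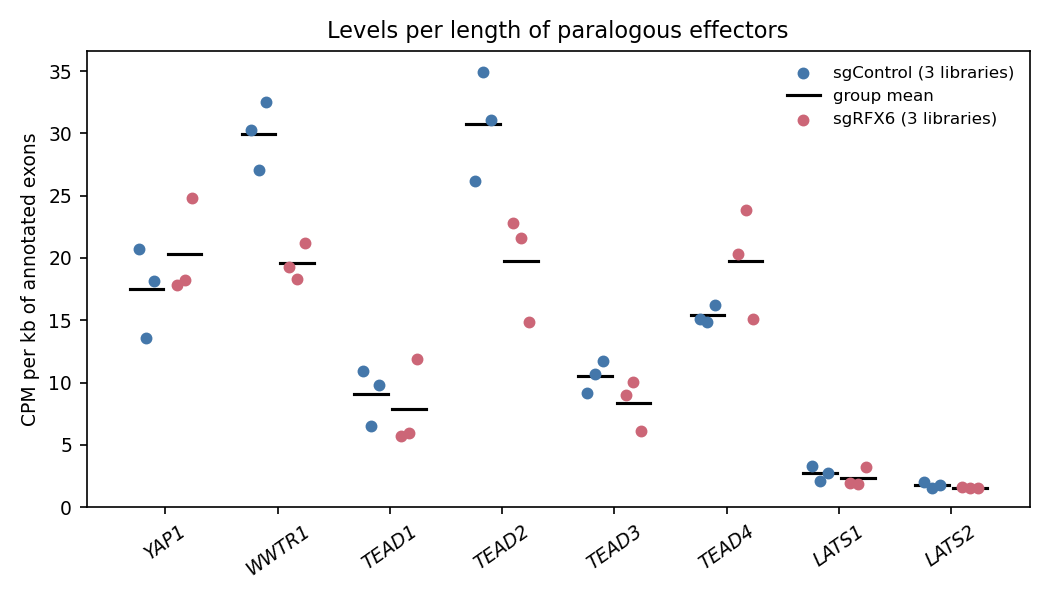
Level in CPM per kb of annotated exons of the YAP/TAZ, TEAD and LATS paralogs, with 1 point per library and a line at each group mean (3 sgControl and 3 sgRFX6 libraries). WWTR1 and TEAD2 had the highest sgControl means, 29.95 and 30.7, against sgRFX6 means of 19.6 and 19.8, near YAP1 (20.3) and TEAD4 (19.8).

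The TEAD factors, which carry YAP and TAZ to DNA, did not pass the test. TEAD1 (chr11:12674591-12944483) measured 102, 60.4 and 90.9 CPM in sgControl and 52.9, 55.0 and 110 CPM in sgRFX6. Libraries 1 and 2 of sgRFX6 lay below all sgControl libraries, and library 3 lay above them all. With all libraries the log2 fold change was -0.21 (SE 0.32, edgeR adjusted p = 0.845), and it was -0.64 (adjusted p = 0.141) without sgRFX6 library 3. It was -0.41 without sgControl library 2, -0.11 without sgControl library 3, -0.059 without sgControl library 1, and -0.027 and -0.047 without sgRFX6 libraries 1 and 2, so the size of the TEAD1 difference rested on single libraries. Limma-voom, which weights each library by its quality, gave -0.74 (adjusted p = 0.00230), whereas the GC-corrected edgeR fit gave -0.25 (adjusted p = 0.437).

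TEAD4 (chr12:2959330-3040673) showed the opposite order. It measured 27.3, 26.8 and 29.3 CPM in sgControl and 36.6, 43.1 and 27.3 CPM in sgRFX6, so libraries 1 and 2 of sgRFX6 were above every sgControl library and library 3 was within their range. The log2 fold change was 0.36 (SE 0.22, edgeR adjusted p = 0.505) and was 0.53 (adjusted p = 0.108) without that library, but 0.20 (adjusted p = 0.754) without sgRFX6 library 2. TEAD4 transcripts have a GC content of 60.4% and those of TEAD1 41.3%, and the part of the library's GC trend in either value was tested only by the corrected fit, which gave 0.41 for TEAD4 (adjusted p = 0.0869). Among the 13 alternatives TEAD4 was called by limma-voom alone (adjusted p = 0.0304).

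Of the paralogs outside the members, TEAD2 measured 70.2, 93.9 and 83.5 CPM in sgControl and 61.2, 58.1 and 40.0 CPM in sgRFX6. These groups did not overlap, a pattern found in 11.2% of all genes tested. The log2 fold change of -0.64 missed the threshold (edgeR adjusted p = 0.172). The lowest value, 40.0 CPM, was that of sgRFX6 library 3. TEAD2 transcripts have a GC content of 58.4%, and no fit of TEAD2 without that library is given here. TEAD3 had a log2 fold change of -0.32 (edgeR adjusted p = 0.600) with overlapping groups. In CPM per kb, TEAD2 made up 0.426, 0.522 and 0.452 of the summed level of the 4 TEAD genes in sgControl and 0.394, 0.352 and 0.310 in sgRFX6 (two-sided exact permutation p = 0.1, the smallest possible, chosen after the values were seen). The ratio of TEAD4 to TEAD1 overlapped, from 1.38 to 2.27 in sgControl and from 1.27 to 4.03 in sgRFX6 (exact permutation p = 0.4). That overlap rested on sgRFX6 library 3, at 1.27, while libraries 1 and 2, at 3.56 and 4.03, lay above every sgControl library.

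LATS2 (chr13:20973032-21061547), the kinase that inactivates YAP and TAZ and is itself a YAP target, had the lowest mean per kb of the members in both groups. In sgRFX6 its 1.55 ± 0.0788 CPM per kb could not be ranked against ANKRD1 at 1.69 ± 0.241 (SD, n = 3 each). LATS2 measured 11.1, 8.62 and 9.92 CPM in sgControl and 9.04, 8.23 and 8.35 CPM in sgRFX6. The groups overlapped only through sgRFX6 library 1, which exceeded sgControl library 2. LATS2 had a log2 fold change of -0.21 (SE 0.23, edgeR adjusted p = 0.757), which was -0.12 without sgControl library 1. Its paralog LATS1 gave the same log2 fold change of -0.21 (edgeR adjusted p = 0.821). For LATS1, sgRFX6 libraries 1 and 2 lay below every sgControl library and library 3 lay within their range. No fit of LATS1 without library 3 is given here. The ratio of LATS2 to LATS1 in CPM per kb averaged 0.675 ± 0.0770 in sgControl and 0.708 ± 0.201 in sgRFX6 (SD, n = 3 each). It was 0.606, 0.758 and 0.661 in sgControl and 0.846, 0.799 and 0.477 in sgRFX6 (exact permutation p = 0.9). The closeness of these means thus rested on sgRFX6 library 3, while libraries 1 and 2 lay above every sgControl library.

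The scaffold proteins of the pathway differed from each other in pattern. AMOTL2 (chr3:134355874-134375479), an angiomotin that binds YAP at junctions and is also a YAP target, measured 67.7, 56.6 and 63.5 CPM in sgControl and 77.2, 78.0 and 78.2 CPM in sgRFX6. It was the only member with every sgRFX6 library above every sgControl library, a pattern found in 12.0% of all genes tested, and its sgRFX6 libraries were almost identical. The log2 fold change of 0.31 (SE 0.16) missed the threshold (edgeR adjusted p = 0.404). The 50 nearest tested genes had the same median, 0.31, and in a refit with it subtracted 0.04 remained. Limma-voom alone called AMOTL2 (0.27, adjusted p = 0.0491).

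AJUBA (chr14:22971174-22982642), a LIM protein that binds and inhibits LATS kinases, measured 80.2, 66.4 and 86.6 CPM in sgControl and 81.4, 93.0 and 62.7 CPM in sgRFX6. The sgRFX6 libraries held both the highest and the lowest value, the latter in library 3. AJUBA had a log2 fold change of 0.02 (SE 0.20, edgeR adjusted p = 0.977), and without that library it was 0.17 (adjusted p = 0.551). Omitting library 2 of sgRFX6 gave -0.11, and omitting library 2 of sgControl gave -0.081.

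Of the 3 members that are foremost targets of YAP, 1 passed the test. ANKRD1 (chr10:90912096-90921276), a nuclear ankyrin repeat protein of muscle and of cells under tension, was counted 546, 406 and 440 times across sgControl and 69, 45 and 83 times across sgRFX6. These counts correspond to 26.3, 16.4 and 19.0 CPM against 3.43, 2.83 and 3.77 CPM, so the lowest control library exceeded the highest knockout library by a wide margin. ANKRD1 fell by 2.62 on the log2 scale (SE 0.28, edgeR adjusted p = 0.00201), which is 6.13-fold. It ranked 44 by p-value among all genes tested. It was called in 13 of 13 alternatives, with log2 fold changes from -2.76 to -2.40 and a highest adjusted p of 0.0141. Without sgRFX6 library 3 the value was -2.71 (edgeR adjusted p = 0.00492). The 50 nearest tested genes had a median of -0.07.

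CYR61 (chr1:85580761-85583962), a secreted matrix protein, measured 18.8, 10.97 and 16.9 CPM in sgControl and 10.8, 14.8 and 8.49 CPM in sgRFX6. The groups overlapped, with sgControl library 2 close to sgRFX6 library 1. CYR61 had a log2 fold change of -0.46 (SE 0.30, edgeR adjusted p = 0.544), and limma-voom alone called it (adjusted p = 0.0237). Leaving out 1 library moved it both ways, to -0.27 without sgRFX6 library 3 and -0.30 without sgControl library 1, and to -0.69 without sgRFX6 library 2 and -0.66 without sgControl library 2. The ratio of ANKRD1 to CYR61 in CPM per kb was 1.616, 1.734 and 1.302 in sgControl and 0.366, 0.222 and 0.514 in sgRFX6, without overlap (exact permutation p = 0.1, the smallest possible, chosen after the values were seen).

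CTGF (chr6:131948176-131951373), the connective tissue growth factor, measured 33.8, 12.8 and 12.0 CPM in sgControl and 17.1, 17.5 and 21.2 CPM in sgRFX6. One control library, number 1, was the highest of all, and the other control libraries were the lowest. The log2 fold change was -0.07 (SE 0.39, edgeR adjusted p = 0.966) and became 0.58 (adjusted p = 0.460) without sgControl library 1. It was -0.30 and -0.29 without sgControl libraries 2 and 3. CTGF and CYR61 also respond to serum and handling as immediate-early genes do. In the same library EGR1, an immediate-early transcription factor, measured 62.0 CPM against 10.7 and 12.9 CPM in the other controls and between 15.1 and 26.5 CPM in sgRFX6. EGR1 was picked from 15 listed immediate-early genes after its values were seen, and the list did not vary as one. Across sgControl libraries 1, 2 and 3, JUN was also highest in library 1 (225, 102 and 155 CPM). JUNB was highest in library 2 (118, 197 and 99.0 CPM), and ZFP36 was near level (118, 110 and 109 CPM). Whether handling took part in the CTGF values was not tested.

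**Figure D3:**
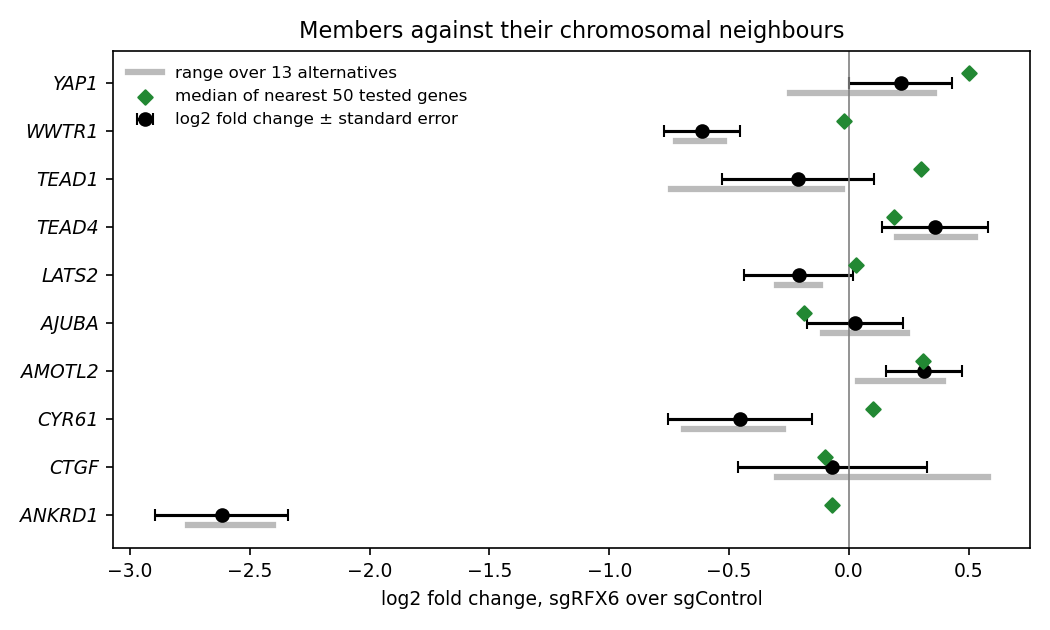
Log2 fold change of each member, sgRFX6 over sgControl (black points, with bars of 1 standard error from edgeR on 3 against 3 libraries), the range over 13 alternatives (grey lines) and the median of the 50 nearest tested genes (green diamonds). ANKRD1 stands alone at -2.62 with its neighbours at -0.07, whereas AMOTL2 coincides with its neighbourhood at 0.31 and the range of CTGF runs from -0.30 to 0.58.

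Levels can be ordered between genes only per length. In CPM per kb the order in sgControl ran from WWTR1 (29.95) through YAP1 (17.5), AJUBA (16.3), TEAD4 (15.4), AMOTL2 (13.1), ANKRD1 (10.4), TEAD1 (9.09), CTGF (8.35) and CYR61 (6.79) to LATS2 (1.79). Within this order YAP1, AJUBA and TEAD4 could not be ranked against the next of these 3, since each step was smaller than the larger SD of its pair, and the same held among ANKRD1, TEAD1, CTGF and CYR61. In sgRFX6, ANKRD1 stood at 1.69 ± 0.241, next to LATS2 at 1.55 ± 0.0788 (SD, n = 3 each), while CYR61 and CTGF remained at 4.96 ± 1.38 and 7.94 ± 0.956.

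The rest of the pathway was read from lists of the upstream kinases, the junction and polarity proteins, and the nuclear partners of YAP and TAZ. Of 34 genes listed, 33 were in the table, VGLL1 was not analysed here, and 30 were tested. Of these, 1 was called lower, AMOTL1, and 0 higher, against 1.81% lower and 1.92% higher among all genes tested. The median log2 fold change was 0.03. The groups did not overlap for 6 lower and 2 higher genes, against 11.2% and 12.0% of all genes tested. These lists were chosen with earlier results known, so the counts test nothing about the pathway as a set. The kinase core, 15 genes from STK3 and STK4 to MAP4K4, held 0 calls with a median of 0.03, the 11 tested junction and polarity genes held 1 call with a median of 0.06, and the 4 tested nuclear partners held 0 calls with a median of -0.32. In the kinase core MAP4K4, a kinase that phosphorylates LATS, came closest at -0.67 (edgeR adjusted p = 0.0742, chosen after its values were seen).

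AMOTL1, an angiomotin and the paralog of AMOTL2, measured 8.24, 10.1 and 7.08 CPM in sgControl and 4.27, 2.95 and 3.04 CPM in sgRFX6. It fell by 1.31 on the log2 scale (edgeR adjusted p = 0.0401), while its 50 neighbours on the chromosome had a median of 0.47. The call was lost in each of the 6 fits that left out 1 library (adjusted p up to 0.132), with log2 fold changes from -1.50 to -1.16. The ratio of AMOTL1 to AMOTL2 in CPM per kb ranged from 0.0592 to 0.0949 in sgControl and from 0.0201 to 0.0294 in sgRFX6 (exact permutation p = 0.1, the smallest possible, chosen after the values were seen).

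A further list held 17 YAP/TAZ target genes known from other cells, of which 15 were tested. Of these, 3 were lower, 1 was higher and 11 missed the threshold, against 1.81% lower and 1.92% higher among all genes tested. Log2 fold changes were negative for 12 and positive for 3, with a median of -0.14, the same as that of the members. The groups did not overlap for 5 lower and 2 higher genes, against 11.2% and 12.0% of all genes tested. This list too was chosen with earlier results known, so these counts test nothing about the targets as a set. PTPN14, a phosphatase that holds YAP in the cytoplasm, measured 51.0, 35.6 and 51.4 CPM in sgControl and 9.38, 8.35 and 9.35 CPM in sgRFX6. The groups were far apart, and PTPN14 fell by 2.35 on the log2 scale (SE 0.23, edgeR adjusted p = 0.00139), close to the change of ANKRD1.

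AXL, a receptor tyrosine kinase, measured 93.1, 113 and 98.9 CPM in sgControl and 38.9, 46.4 and 28.8 CPM in sgRFX6, without overlap. It fell by 1.42 on the log2 scale (SE 0.21, edgeR adjusted p = 0.00868). IGFBP3, a secreted binding protein of insulin-like growth factors, went the other way. It measured 4.86, 5.06 and 3.62 CPM in sgControl and 37.7, 22.3 and 31.1 CPM in sgRFX6, a log2 fold change of 2.75 (SE 0.28, edgeR adjusted p = 0.00177), while its 50 neighbours had a median of 0.48. PTPN14, AXL and IGFBP3 were called in 13 of 13 alternatives each. FOXF2, a forkhead transcription factor, was low, with 22 to 27 counts in sgControl and 5 to 7 in sgRFX6. Its log2 fold change of -1.82 (edgeR adjusted p = 0.0435) was called in 3 of 13 alternatives and in 0 of the 6 that left out a library, where the adjusted p reached 0.203.

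**Figure D4:**
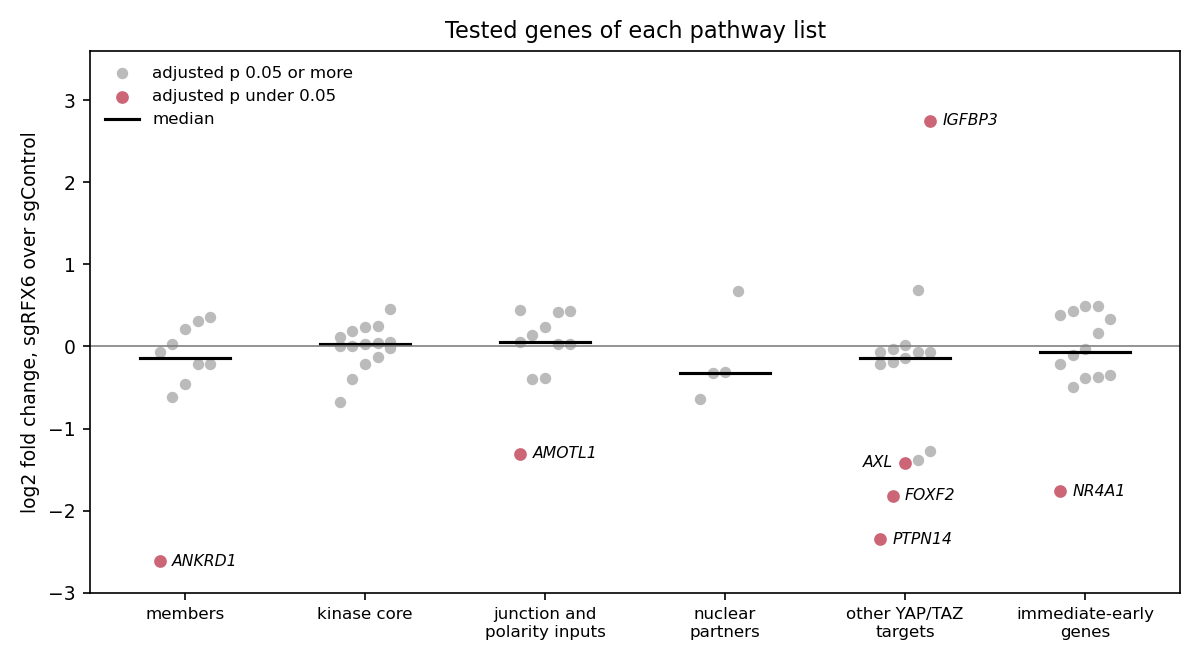
Log2 fold change, sgRFX6 over sgControl, of each tested member and of each tested gene of the pathway, target and immediate-early lists, with 1 point per gene and a line at each list's median. Red points passed an adjusted p under 0.05 in edgeR (3 against 3 libraries), and the medians of the members and of the other YAP/TAZ targets are both -0.14, and among the genes plotted ANKRD1 and PTPN14 are lowest and IGFBP3 is highest.

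The immediate-early genes were set beside CYR61 and CTGF because culture handling can shift all of them. Of 15 listed, 14 were tested, 1 was lower and 0 were higher, with a median log2 fold change of -0.07. Among all genes tested, 1.81% were called lower and 1.92% higher. NR4A1, an orphan nuclear receptor, measured 24.7, 14.4 and 13.98 CPM in sgControl and 7.40, 3.52 and 4.63 CPM in sgRFX6. It fell by 1.77 on the log2 scale (edgeR adjusted p = 0.0296) and was called in 1 of the 6 fits that left out a library.

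Markers of fibroblasts were measured because ANKRD1, AXL and CTGF are also high in mesenchymal cells. Of 7 listed, 5 were tested and 3 were lower, against 1.81% of all genes tested. The 3 were COL1A1 (-2.08, edgeR adjusted p = 0.0108), COL1A2 (-3.71, adjusted p = 0.00276) and PDGFRA (adjusted p = 0.0120), the last at 36, 33 and 69 counts in sgControl against 2, 3 and 0 in sgRFX6. COL1A1 lost its call without sgControl library 3 (adjusted p = 0.0558) and without sgRFX6 library 1 (0.0650), and PDGFRA lost it without sgRFX6 library 1 (0.0592). Their levels were low, at most 5.44 CPM in any library. The sum of the 7 markers ranged from 27.7 to 34.6 CPM in sgControl and from 21.4 to 56.2 CPM in sgRFX6, most of it LUM. The highest sum was that of sgRFX6 library 3, in which LUM measured 54.7 CPM against 19.5 and 20.5 CPM in the other sgRFX6 libraries. No library of either group had COL1A2 or COL1A1 at 0, whereas PDGFRA was at 0 in sgRFX6 library 3. The hepatocyte list summed to between 236 and 271 CPM in sgControl and between 199 and 214 CPM in sgRFX6. Most of this sum was HNF4A and APOB, the 2 genes of the list with negative log2 fold changes (-0.27 and -1.29, neither called). The other 6 were positive, and the median of the list was 0.29. Of its 8 genes 1, AFP, was called higher (2.82, edgeR adjusted p = 0.00254), against 1.92% of all genes tested. The part of these markers in the values of ANKRD1 and the other members was not tested.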

How the data were processed

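The authors deposited 1 table of raw read counts per gene for 6 libraries, made from Trizol RNA sequenced on an Illumina instrument. The submitters' processing notes name the build GRCh38 (hg38). The aligner, counter, annotation and strand setting are not given in the sources used here. The control columns name Cas and no guide, and were taken as sgControl, the only control group.

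One row without a gene name (at most 9.17e-05% of counts) was left out. Counts were fitted with edgeR 4.0.16 in R 4.3.3 (filterByExpr with a minimum count of 10 and a minimum total of 15, TMM, quasi-likelihood test, no covariates), with Benjamini-Hochberg adjustment over all 12839 genes tested and a threshold of 0.05. SEs were derived from the F statistic and the fitted log2 fold change. CPM are TMM-scaled. The floor of 3 counts covers counting error only. Positions, exon lengths and GC content came from GENCODE 29 (15399 row names matched by name, 261 by another symbol and 1061 not).

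Every member was named. From the other lists, genes with an adjusted p under 0.05 and the paralogs TEAD2, TEAD3 and LATS1 were named by rule. MAP4K4, EGR1, JUN, JUNB, ZFP36 and the cell type markers HNF4A, ALB, APOB and LUM were named after their values were seen. The members and lists were chosen with earlier results of these data known. Alternatives were RLE factors, DESeq2 1.42.0, limma-voom (limma 3.58.1), no filter, a replicate block, a GC correction, subtraction of the median of the nearest 50 genes, and leaving out each library. The fits were tested on simulated data. Libraries of a group differed by more than sampling noise (chi-square per degree of freedom at least 17.0).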

Additional observations from a re-analysis of the deposited data

How the results depend on the processing

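ANKRD1, PTPN14, AXL and IGFBP3 were called in all 13 alternatives. The number of members called, 1 in the analysis above, was 2 with DESeq2, 2 with the GC correction, 6 with limma-voom and 1 to 2 when a library was left out (2 without sgRFX6 library 3, which adds WWTR1). For all genes, 480 calls became 895 with DESeq2, 1379 with the GC correction and 3998 with limma-voom, and ranged from 212 to 718 with a library left out: 306 and 212 without sgControl libraries 1 and 3, 216 and 307 without sgRFX6 libraries 1 and 2. Calls among the other Hippo genes (1) were 2, 3 and 10 with DESeq2, the GC correction and limma-voom and 0 to 1 with a library left out, and those among the other YAP/TAZ targets (4) were 9 with limma-voom. The direction reversed for 3 members that were never called. YAP1 was -0.027 with limma-voom and -0.24 after subtraction of its neighbours, CTGF was 0.16, 0.10 and 0.070 with limma-voom, the replicate block and that subtraction and -0.30 to 0.58 with a library left out, and AJUBA was -0.013 with limma-voom and -0.11 to 0.17 with a library left out. The cause was not tested.

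Same-numbered libraries did not deviate together (correlations across genes of -0.520, 0.218 and -0.115), so the numbers were not taken as pairs, and no sgControl library correlated best with its own number. With the replicate block, 648 genes and 1 member were called. The biological coefficient of variation was 0.269 over 3 libraries a group, so a member that missed the threshold is not shown to be equal between the groups.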
